A study of Mus musculus with 4 samples.

Results

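The genes described here encode structural microtubule-associated proteins (Map1a, Map1b, Map2, Map4, Map6 and Mapt) and stathmins (Stmn1, Stmn2, Stmn3 and Stmn4). They were chosen by symbol, and all 10 had a row among the 31735 gene rows shared by the 4 count tables. The RNA was ribosome-bound RNA from the rostral pons of adult, untreated mice of the Cbln2-TRAP line NIDA172, in which a transgene named for the cerebellin gene Cbln2 carries EGFP-tagged ribosomal protein Rpl10a. Tagged polysomes were captured with antibodies to EGFP, and all 4 libraries were immunopurified replicates of this 1 group. The labels do not say whether a replicate is 1 animal or a pool, so spreads and p-values cover these libraries and may be technical.

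Microtubules are polymers of tubulin that carry transport along axons and dendrites. Structural microtubule-associated proteins bind the polymer and stabilise or space it, and stathmins bind tubulin dimers and favour disassembly unless they are phosphorylated. In neurons, Map2 protein is concentrated in dendrites and cell bodies and tau, the product of Mapt, in axons. Map1b is known for its high level in growing axons and Map1a for its rise as neurons mature. Stmn1 is a cytosolic protein of many dividing and neuronal cells, while Stmn2, Stmn3 and Stmn4 are neuronal and are held on membranes through palmitoylated cysteines near their start.

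That difference is visible in the starts of the stathmin coding sequences, shown because it separates Stmn1 from the other members of its family. The first 90 coding bases of the principal transcripts (GENCODE M21, GRCm38) are given 5′ to 3′, on the strand of the gene. Capitals mark in-frame cysteine codons, searched as TGT or TGC on the coding strand.
Stmn1: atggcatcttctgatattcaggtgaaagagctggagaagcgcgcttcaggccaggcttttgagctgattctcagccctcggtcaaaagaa
Stmn2: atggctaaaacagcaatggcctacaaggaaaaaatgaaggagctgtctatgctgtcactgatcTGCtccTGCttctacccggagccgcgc
Stmn3: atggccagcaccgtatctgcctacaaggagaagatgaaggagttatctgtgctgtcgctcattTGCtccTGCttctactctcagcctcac
Stmn4: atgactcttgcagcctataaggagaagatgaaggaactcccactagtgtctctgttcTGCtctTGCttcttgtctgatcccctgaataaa
Stmn2 and Stmn3 have cysteine codons at positions 22 and 24, counted from the start codon, and Stmn4 at 20 and 22. Stmn1 has 0 cysteine codons in its coding sequence. The coding sequences hold 149 codons in Stmn1, 179 in Stmn2, 180 in Stmn3 and 189 in Stmn4, without the stop. Aligned pairwise, they are 74.0% to 79.6% identical over the 409 to 519 bases that align without gaps. Bases outside the aligned part are not counted. The longest run of identical bases is 43 between Stmn1 and Stmn2 and 16 to 21 in the other 5 pairs.

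Mapt, Map2 and Map4 belong to 1 protein family, whose members bind microtubules through related repeats near the end of the protein. The longest identical run between the coding sequences of Map2 and Map4 is 13 bases. Between Map1a and Map1b it is 26 bases.

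The genes lie on different chromosomes except for Map1a and Stmn3. In GRCm38, Map1a (ENSMUSG00000027254.13) spans 121289600 to 121310832 on the plus strand of chromosome 2 and Stmn3 (ENSMUSG00000027581.12) spans 181306459 to 181314500 on its minus strand. Map1b (ENSMUSG00000052727.6) spans 99421446 to 99516540 on the minus strand of chromosome 13. The others are on the plus strand, with Map2 on chromosome 1 (66175273 to 66442583), Map4 on chromosome 9 (109931460 to 110083955) and Map6 on chromosome 7 (99267447 to 99337137). Mapt is on chromosome 11 (104231390 to 104332090), Stmn1 on chromosome 4 (134468320 to 134473843), Stmn2 on chromosome 3 (8509360 to 8561606) and Stmn4 on chromosome 14 (66344296 to 66361680). A near-identical copy elsewhere was found for 1 of the 10 transcripts, at 90% identity over 100 bases or more. Gm11223, a processed pseudogene with no row in the tables, matches 450 of the 1060 bases of Stmn1 at 99.8%. Reads that align to several places were counted apart and made up 28.6% to 37.2% of a library, so the Stmn1 counts are uncertain, and how many of its reads were counted apart was not tested. Exons of Ppip5k1 on the opposite strand cover 2.24% of the Map1a exons, the antisense gene Gm10558 covers 0.754% of those of Map2 and the miRNA gene Gm23634 lies within 3.43% of those of Stmn1.

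The libraries fall into 2 pairs of adjacent library numbers. Replicates 3 and 4 (2469 and 2470) are called the second pair and replicates 1 and 2 (1666 and 1667) the first pair. Gene counts totalled 12731825 and 15315942 in replicates 3 and 4, against 21140265 and 15556918 in replicates 1 and 2. The row of the ribosomal RNA precursor Rn45s held 24.2% and 9.29% of them in the second pair, against 1.68% and 1.61% in the first, which lowers the CPM (counts per 1000000 gene counts) of every other gene there. Cell type markers were listed for this report. The 6 neuronal genes summed to 10230 and 9326 CPM in replicates 3 and 4, against 20970 and 19030 in replicates 1 and 2. That gap came mostly through Snap25, and Syn1 was lower too. Uchl1 went the other way (336.9 and 246.5 CPM, against 108.4 and 104.3), and Rbfox3, Elavl4 and Syt1 overlapped. The median log2 change of the 6 was -0.08 in the comparison of the pairs below, and 0 of them passed. The 7 granule cell markers summed to 129.9 and 255.9 CPM, against 525.9 and 1141, and the 8 oligodendrocyte markers to 414.2 and 2392, against 1430 and 1730. The 8 astrocyte markers summed to 447.9 and 2019 CPM, against 1225 and 1446. The 6 Purkinje cell markers summed to 721.9 and 680.3 CPM, against 1448 and 2479, the 7 endothelial ones to 95.6 and 40.1, against 141.4 and 208.5, and the 5 of oligodendrocyte precursors to 17.0 and 92.7, against 26.4 and 31.8. The 8 microglia markers summed to 7.78 and 44.5 CPM, against 21.9 and 3.79, with Aif1, Tmem119 and C1qa each at 0 counts in 2 of the libraries. The 6 immature neuron markers summed to 288.3 and 291.7 CPM, against 119.8 and 87.5, with Igfbpl1 at 0 in all 4 libraries. This was mostly through Tubb3, a tubulin of neurons, at 219.8 and 240.7 CPM, against 69.1 and 50.01. Dcx, Sox11 and Sox4 overlapped between the pairs, and Neurod4 was at 0 in replicates 3 and 4, against 0.14 and 6.62. The part of other cell types in the levels below was not tested. Fewer cells of a type and less RNA per cell cannot be told apart in these bulk libraries.

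All 10 genes were well detected. Each reached 10 CPM in 4 of 4 libraries and 8 reached 100 CPM in 4 of 4, the exceptions being Map6 and Stmn4, and the lowest count of any of them in a library was 879. Together they summed to 10415 and 18846 CPM in replicates 3 and 4, against 12670 and 14968 CPM in replicates 1 and 2. That is between 1.04% and 1.88% of the gene counts of a library. Map1b alone made up 63.9 ± 3.58% (SD, n = 4) of this sum.

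**Figure D1:**
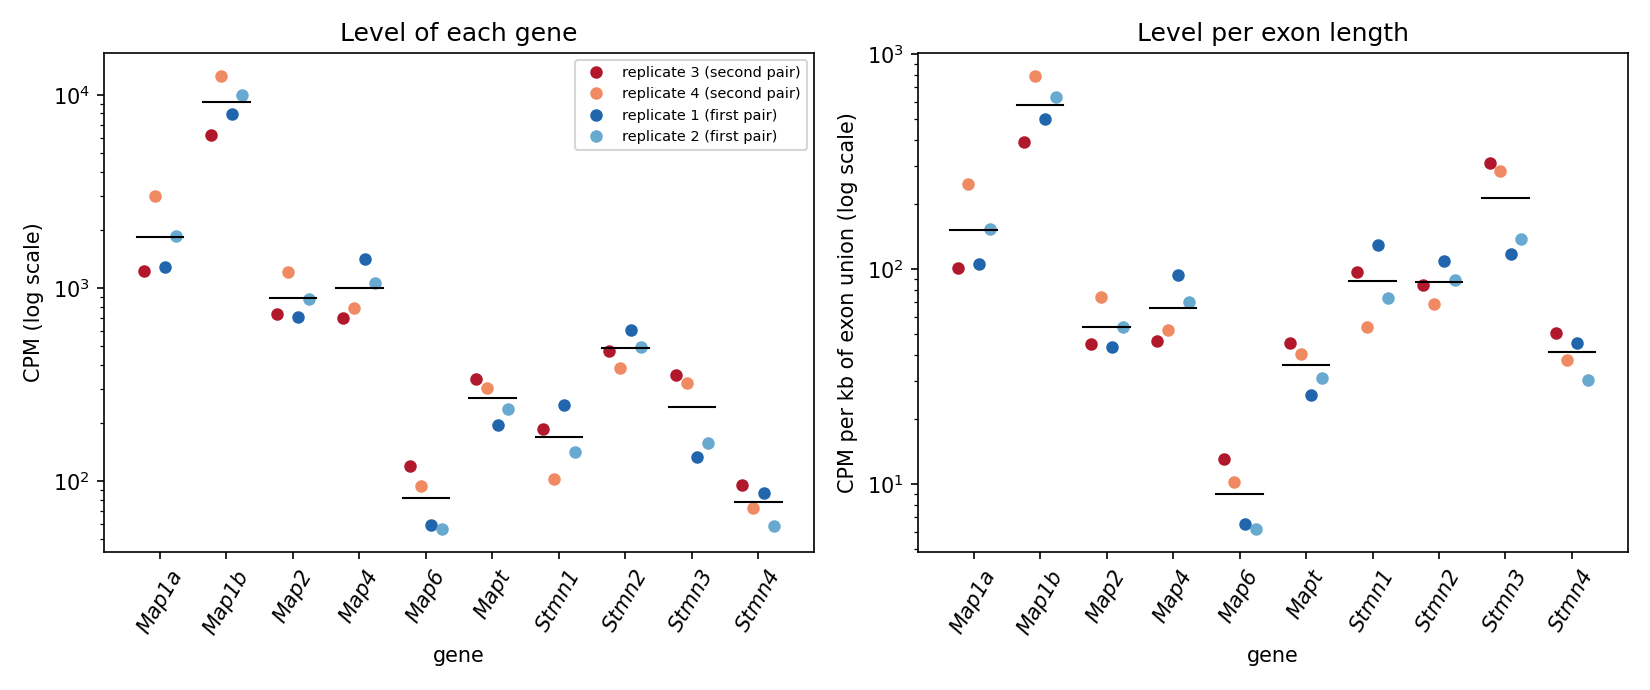
Level of each gene in each library, in CPM (left) and in CPM per kb of exon union (right), both on log axes. Points are libraries and bars the mean of 4, and Map1b stands highest and Map6 lowest per kb in 4 of 4 libraries.

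Map1b and Map1a, which encode the large Map1 proteins, had the highest mean CPM, although Map4 exceeded Map1a in replicate 1. Map1b was at 6187 and 12551 CPM in replicates 3 and 4, against 7922 and 10014 CPM in replicates 1 and 2, a mean of 9169 ± 2745 CPM (SD, n = 4). The extremes were both in the second pair, so the pairs overlapped. Map1b ranked 3 and 2 among all gene rows in replicates 3 and 4, against 5 and 3 in replicates 1 and 2. Map1a was at 1225 and 3007 CPM in replicates 3 and 4, against 1283 and 1862 CPM in replicates 1 and 2, with a mean of 1844 ± 827 CPM. Replicate 4 held the highest value and replicate 3 the lowest for both genes. With Rn45s left out of the totals, Map1a was at 1616 CPM in replicate 3, against 1305 CPM in replicate 1, and Map1b at 8165 CPM in replicate 3, against 8058 CPM in replicate 1, so replicate 1 was then the lowest.

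Of the repeat-bearing proteins, Map4, which is found in many cell types beyond neurons, was at 703.0 and 790.1 CPM in replicates 3 and 4, against 1421 and 1066 CPM in replicates 1 and 2. Both values of the second pair were below both of the first. Map2, the dendritic protein, was at 733.9 and 1215 CPM in replicates 3 and 4, against 711.5 and 881.3 CPM in replicates 1 and 2. The means were 995 ± 323 CPM for Map4 and 886 ± 232 CPM for Map2 (SD, n = 4). The tau gene Mapt was at 340.0 and 304.6 CPM in replicates 3 and 4, against 194.9 and 235.5 CPM in replicates 1 and 2. Its mean was 269 ± 65.6 CPM, and the pairs did not overlap.

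Map6, also known as STOP, encodes a protein that stabilises microtubules against cold. It was at 119.3 and 94.1 CPM in replicates 3 and 4, against 59.7 and 56.5 CPM in replicates 1 and 2. The second pair was above the first, and the mean was 82.4 ± 29.9 CPM (SD, n = 4).

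Among the stathmins, Stmn2 (SCG10) had the most counts, with 471.9 and 384.1 CPM in replicates 3 and 4, against 608.1 and 495.4 CPM in replicates 1 and 2. It was also the steadiest of the 10 genes, with a mean of 490 ± 92.2 CPM and a highest value 1.58 times the lowest. Stmn3 (SCLIP) was at 353.0 and 323.1 CPM in replicates 3 and 4, against 133.8 and 157.3 CPM in replicates 1 and 2, and varied most, by 2.64 times. Its mean was 242 ± 112 CPM (SD, n = 4). The 2 values of a pair were close together and the pairs far apart.

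Stmn1 was at 186.0 and 103.1 CPM in replicates 3 and 4, against 249.1 and 141.2 CPM in replicates 1 and 2, a mean of 170 ± 62.7 CPM (SD, n = 4). Stmn4 (RB3) was at 96.1 and 72.5 CPM in replicates 3 and 4, against 86.5 and 58.6 CPM in replicates 1 and 2, a mean of 78.4 ± 16.4 CPM. For both genes the pairs overlapped.

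The spread among libraries was set beside that of other genes of ample counts. The SD of log2 CPM over 4 libraries had a median of 0.45 over the 10 genes and of 0.54 over the 6437 genes that reached 10 CPM in all libraries. Of the 10 genes, 7 were below the median of all these genes. No library was uniformly high, since 4 genes peaked in replicate 3, 3 in replicate 4, 3 in replicate 1 and 0 in replicate 2.

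Long transcripts give more reads, so levels of different genes were compared per kb of exon. Map1b led with 579 ± 173 CPM per kb (SD, n = 4), followed by Stmn3 with 213 ± 98.8, Map1a with 152 ± 68.0 and Stmn1 with 88.4 ± 32.6. Stmn2 had 87.4 ± 16.5 CPM per kb, Map4 65.7 ± 21.3, Map2 53.8 ± 14.1, Stmn4 40.9 ± 8.56, Mapt 35.7 ± 8.72 and Map6 9.00 ± 3.27. Of the 9 steps between neighbours in this order, 1 was larger than 2 SD of the log2 ratio within a library, that between Mapt and Map6 at the low end. The other 8 neighbours did not differ beyond that spread.

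Which length is used moves the middle of the order. The exon union of Stmn2 over its 4 transcripts has 5602 bases, its longest transcript 3413 and its principal coding transcript 2073. With the principal transcript as length, a choice made after the data were seen, Stmn2 came second with 236 CPM per kb and Stmn3 came next with 213. Mapt moved up to 197 and Map2 had 142, though the principal Mapt transcript of 1362 bases holds little beyond its 1293 coding bases. Map1b was first and Map6 last with the exon union, the longest transcript and the principal transcript alike.

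Ratios within a library do not depend on the library total, apart from the 0.5 CPM per kb added before log2. With 0 added, the mean log2 ratio of Map6 to Mapt was -2.02. Map1a stood at 0.254 of Map1b per kb, with log2 ratios of -1.95 and -1.68 in replicates 3 and 4, against -2.24 and -2.04 in replicates 1 and 2 (mean -1.98 ± 0.23, SD). Map6 stood at 0.257 of Mapt, with log2 ratios of -1.75 and -1.93 in replicates 3 and 4, against -1.91 and -2.25 in replicates 1 and 2 (mean -1.96 ± 0.21, SD). Both means were over 2 SD and below 0 in 4 of 4 libraries, also with each of the other lengths tried.

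The ratio of Map2, the dendritic gene, to Mapt, the axonal one, had log2 values of -0.02 and 0.86 in replicates 3 and 4, against 0.73 and 0.77 in replicates 1 and 2. Replicate 3 stood apart from the other 3 libraries, and the mean of 0.59 ± 0.41 was under 2 SD. With the principal transcripts as length the mean was -0.48, so no order of these genes can be given. Map4 against Mapt had log2 ratios of 0.04 and 0.36 in replicates 3 and 4, against 1.84 and 1.16 in replicates 1 and 2. The ratio was above 0 in 4 of 4 libraries and lower in both libraries of the second pair, with a mean of 0.85 ± 0.81. With the principal transcripts as length the mean was 0.012, so these genes have no set order either.

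Within the stathmins, Stmn3 against Stmn2 had log2 ratios of 1.88 and 2.04 in replicates 3 and 4, against 0.12 and 0.64 in replicates 1 and 2. The mean was 1.17 ± 0.94 and became -0.26 with the principal transcripts as length, a shift that the choice of length gives to all 4 libraries alike. Stmn1 and Stmn2 did not differ beyond the spread per kb of exon union (log2 -0.04 ± 0.31, above 0 in 2 of 4 libraries), but the mean was -0.62 with the principal transcripts as length and -1.58 with no length. Stmn1 reads that also match Gm11223 may be missing from this ratio, which was not tested. Stmn4 stood at 0.469 of Stmn2, below it in 4 of 4 libraries and beyond 2 SD (log2 -1.09 ± 0.36). With 4 libraries, the smallest p of an exact permutation test that flips signs (two-sided) is 0.125. Per kb of exon union, that value was reached by 5 of the 7 ratios (adjusted p = 0.175 over 7). Map2 to Mapt had 0.25 (adjusted p = 0.292) and Stmn1 to Stmn2 0.75 (adjusted p = 0.75). With the principal transcripts as length, Map2 to Mapt and Stmn1 to Stmn2 reached 0.125, while Map4 to Mapt and Stmn3 to Stmn2 did not.

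**Figure D2:**
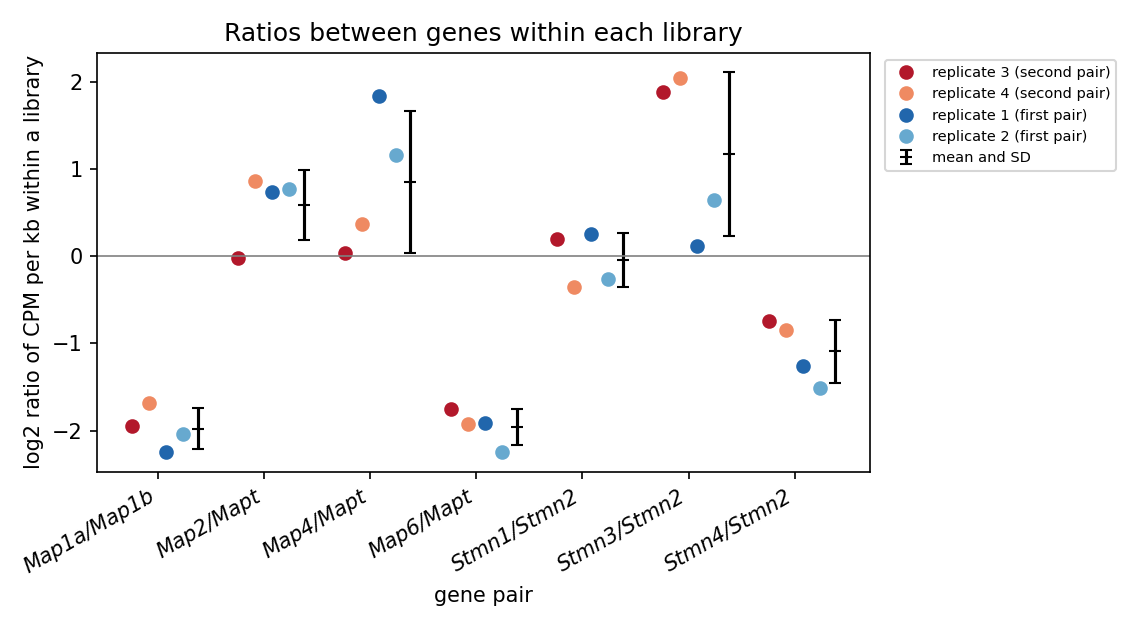
Log2 ratio of CPM per kb between 2 genes within each library, with the mean and SD of 4 libraries beside the points. Map1a/Map1b, Map6/Mapt and Stmn4/Stmn2 lie below 0 in 4 of 4 libraries, and Stmn3/Stmn2 separates the library pairs.

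Shares within each family show the same split. Stmn3 made up 57.3% and 64.0% of the summed stathmin CPM per kb in replicates 3 and 4, against 29.4% and 41.8% in replicates 1 and 2. Stmn2 made up 15.5% and 15.4%, against 27.1% and 26.7%, and Stmn1 17.9% and 12.1%, against 32.3% and 22.2%. The share of Stmn4 was steady at 9.57 ± 1.18% (SD, n = 4). These shares rest on the exon union as length. With no length, Stmn2 led with 42.6% and 43.5% of the summed CPM in replicates 3 and 4, against 31.9% and 36.6% for Stmn3. In replicates 1 and 2 Stmn2 held 56.4% and 58.1%, against 12.4% and 18.4% for Stmn3. Which of the 2 genes has the larger share thus depends on the length used. Among the other 6 genes, Map1b kept 64.4 ± 2.44% of the summed CPM per kb. Map4 made up 7.25% and 4.29% in replicates 3 and 4, against 12.1% and 7.44% in replicates 1 and 2.

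**Figure D3:**
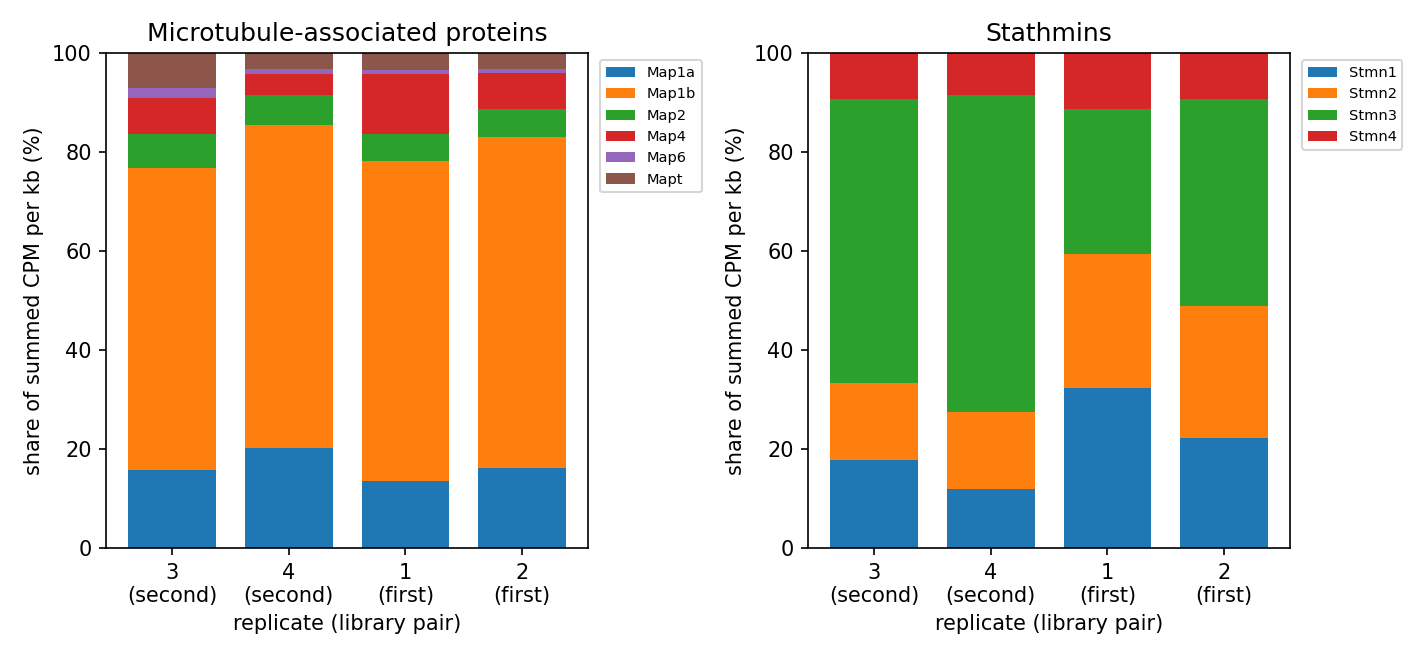
Share of each gene in the summed CPM per kb of exon union of its family, one bar per library, with the second pair on the left. With no length, Stmn2 has a larger share than Stmn3 in 4 of 4 libraries. Stmn3 fills 57.3% and 64.0% of the stathmin bars in the second pair, against 29.4% and 41.8% in the first, while Map1b holds a steady share of the other family.

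The library pairs were then compared across 13905 genes with edgeR (quasi-likelihood test, Benjamini-Hochberg adjustment over all genes, threshold 0.05). The pairs are replicates of 1 group, so this comparison measures how replicates differ and no treatment is involved. Of all genes tested 1.27% passed (176 genes), 0.712% higher and 0.554% lower in the second pair. That count was 699, 662, 420 and 389 without replicate 1, 2, 3 and 4 in turn. Of the 10 genes 0 passed. At an unadjusted p under 0.05, Map4 and Stmn3 would pass, 2 of the 10 beside 16.8% of all genes. By DESeq2, Stmn3 alone of the 10 would pass after adjustment, beside 9.49% of the genes given an adjusted p. The median log2 change was 0.27 over the 10 genes and -0.03 over all genes tested. CPM did not overlap between the pairs for 5 of the 10 genes, beside 47.5% of all genes tested, so that count is close to the background. Map6, Mapt and Stmn3 were above and Map4 and Stmn2 below. When Rn45s was left out of the totals, a choice made after the data were seen, Map2 joined the genes above and Stmn2 overlapped.

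Stmn3 had the largest change among the 10, a log2 value of 1.24 (SE 0.34, 95% interval 0.58 to 1.90, edgeR adjusted p = 0.0856). Its mean was 338 CPM in the second pair and 146 CPM in the first. Its log2 change stood at the 82.1 percentile of all genes tested. Stmn3 passed with no filter, where 875 of 18346 genes did, and at 10 CPM or more in 2 libraries, where 379 of 9016 did. By DESeq2 it passed beside 9.49% of genes. Each of these shares is above the 1.27% of the main fit. It did not pass with DESeq2 size factors within edgeR, library totals alone or Rn45s left out (edgeR adjusted p = 0.0886, 0.104 and 0.0882). Without replicate 4 its log2 change was 1.40, in a fit that leaves 1 library in the second pair, assumed to vary like the first pair. Map6 had a log2 change of 0.91 (SE 0.42, edgeR adjusted p = 0.304) and Mapt of 0.61 (SE 0.33, edgeR adjusted p = 0.392). Map4 had a log2 change of -0.72 (SE 0.29, edgeR adjusted p = 0.234). For Map1b the log2 change was 0.04 with a normal 95% interval of -0.55 to 0.64, which leaves room for a change of either sign. These intervals treat the estimate as normal, so they are narrower than the quasi-likelihood test allows. That of Map6, 0.079 to 1.74, excludes 0 at an unadjusted edgeR p of 0.0522.

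**Figure D4:**
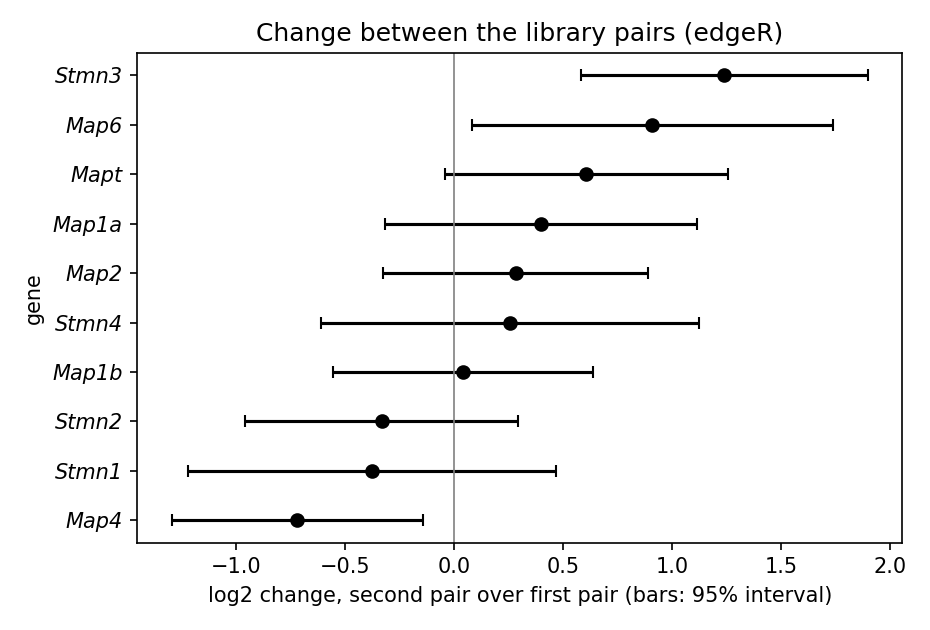
Log2 change of each gene in the second library pair over the first, with bars of a normal 95% interval from the edgeR standard error. The bars are narrower than the test allows. That of Map6 excludes 0 (0.079 to 1.74) at an unadjusted edgeR p of 0.0522. Stmn3 (1.24) is at the top and Map4 (-0.72) at the bottom, and 0 of the 10 passed at an adjusted p of 0.05.

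Other genes of microtubule control were read from 5 lists with 73 genes, of which 71 were tested. Of these 0 rose and 1 fell, a share near the 1.27% of all genes that passed. Ppp2r2c, a regulatory subunit of protein phosphatase 2A, an enzyme that can remove phosphate from tau, was at 249.0 and 261.9 CPM in replicates 3 and 4, against 996.2 and 691.2 CPM in replicates 1 and 2. Its log2 change was -1.70 (SE 0.32, edgeR adjusted p = 0.0278), and it passed under each of the 10 alternatives. In the 4 that leave out a replicate, 1 library stands alone in its pair and is assumed to vary like the other pair. In the list of kinases and phosphatase subunits it had the highest mean, 124 ± 81.3 CPM per kb (SD, n = 4), ahead of Ppp2cb, a catalytic subunit, with 101 ± 39.1 and the tau kinase gene Gsk3b with 90.3 ± 16.9. That order rests on the first pair, since Ppp2r2c was at 56.0 and 58.9 CPM per kb in replicates 3 and 4, below Ppp2cb (79.8 and 68.4) and Gsk3b (73.6 and 79.5). All 20 genes of this list reached 1 CPM in 4 of 4 libraries.

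Of 15 other structural proteins and light chains 0 passed, and their median log2 change was 0.62. The highest means over 4 libraries were Map7d2 with 98.3 ± 12.7, Tppp with 91.1 ± 12.5 and Tppp3 with 46.3 ± 31.8 CPM per kb (SD, n = 4). Map7d2 is a relative of the kinesin partner Map7, and the Tppp genes encode tubulin polymerization promoting proteins. Of 14 genes listed under proteins that bind microtubule ends 0 passed, with a median log2 change of -0.11. Whether the product of each gene binds ends was not tested. They were led by Clip3 with 448 ± 212, Mapre2, an end-binding protein, with 102 ± 51.1 and Camsap2, which binds minus ends, with 57.9 ± 14.7 CPM per kb.

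Severing enzymes had the lowest summed CPM of the 5 lists. Katnal1, a katanin subunit, had 24.2 ± 7.49, the spastin gene Spast 15.6 ± 7.82 and Katna1 2.73 ± 1.52 CPM per kb (SD, n = 4), and 5 of the 8 genes reached 1 CPM in 4 of 4 libraries. Of the tubulin modifying enzymes 14 of 16 had a shared row. They were led by the polyglutamylase gene Ttll7 with 43.4 ± 15.7, Ttll1 with 26.2 ± 7.58 and the deglutamylase gene Agtpbp1 with 22.0 ± 5.82 CPM per kb. Of the 8 severing enzymes and the 14 modifying enzymes 0 passed, with median log2 changes of -0.41 and 0.13.

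Of 53 cell type markers tested, 1 rose and 4 fell, beside 1.27% of all genes that passed, and these are named after their values were seen. Tubb3, a neuronal beta-tubulin listed as an immature neuron marker, was at 219.8 and 240.7 CPM in replicates 3 and 4, against 69.1 and 50.01 CPM in replicates 1 and 2 (log2 change 1.97, SE 0.38, edgeR adjusted p = 0.0307). The granule cell genes Neurod1 and Cbln3 fell, with log2 changes of -3.75 and -2.58 (edgeR adjusted p = 0.0127 and 0.0238). The Purkinje cell genes Car8 and Itpr1 fell, with log2 changes of -2.85 and -1.75 (edgeR adjusted p = 0.0127 and 0.0332). The other 3 Purkinje cell genes tested did not pass, with log2 changes of -2.48 for Ppp1r17, 0.57 for Calb1 and 1.85 for Pcp2. The part of these cell types in the values of Stmn3 and Ppp2r2c was not tested.

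The profiles of the 10 genes over the 4 libraries were compared with those of all 6437 genes at 10 CPM or more in each library, by the root mean square difference of log2 CPM centred on the mean of each gene. Among themselves, Map1b and Map2 were most alike (0.170), then Mapt and Map6 (0.198) and Map1b and Map1a (0.203). Stmn2 was nearest to Map4 (0.246), and Stmn3 to Map6 (0.222). Many other genes were closer, from 114 in the case of Map1a to Map1b to 830 in that of Stmn4 to Stmn2. The count was 136 for Map1b to Map2 and 793 for Stmn2 to Map4. The nearest to Map1b were Eml6 (0.0391) and Mospd2 (0.0403), the nearest to Mapt Gapdh (0.0437) and Agap1 (0.0463), and the nearest to Stmn3 Hibadh (0.0431) and Cinp (0.0592). For Stmn2 they were Zcchc11 (0.0290) and Npat (0.0295), and for Stmn1 Fxyd6 (0.0223) and Pex7 (0.0317). For Map1a they were BC057381 (0.0283) and Tenm3 (0.0550), for Map2 Kmt2a (0.0336) and Immp1l (0.0344), and for Map4 1700021F05Rik (0.0275) and Cbr1 (0.0326). For Map6 they were Tubg2 (0.0363) and Ldoc1l (0.0413), and for Stmn4 Meaf6 (0.0426) and Tpcn1 (0.0520). With 4 points per profile these are descriptions of these libraries.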

How the data were processed

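Each library had 1 deposited table of whole-number counts, which the authors had not normalized, with genes named by symbol. Per the submitters' processing notes, STAR 2.0.0e and HTSeq were used with mm10. No annotation or strand setting is named for the counting, so reads of antisense and overlapping genes cannot be separated. The 5 HTSeq summary rows and the row unknown (0 counts) were left out of all totals. CPM used all gene rows of a table, while comparisons used the 31735 shared rows. One count was worth 0.0473 to 0.0785 CPM. Lengths and loci came from GENCODE M21 (GRCm38, the assembly of mm10) and 0.5 CPM per kb was added before log2 ratios were taken.

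The library pairs were inferred from the library numbers, since the labels name no batch. The label of replicate 4 repeats the replicate tag of replicate 3 in its description, and the title was followed. No libraries agreed within sampling noise. The chi-square per degree of freedom was 215 between replicates 3 and 4 and 153 between replicates 1 and 2. Across the pairs it was 337 to 652. Rn45s, with 3084431 counts in replicate 3 against 356146 in replicate 1, was not left out. Its part in these values was not tested, so they do not measure how far the libraries differ over genes in general. The Pearson correlation of log2 CPM was 0.867 between replicates 3 and 4 and 0.864 between replicates 1 and 2. Across the pairs it was 0.791 to 0.808. Pairs were compared by the quasi-likelihood test of edgeR 4.0.16, with TMM factors and low genes removed by filterByExpr. Alternatives included DESeq2 1.42.0. MAFFT 7.526 and BLAST 2.17.0 compared sequences. One set of coding sequences is not reported here.

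The 10 genes and all lists were chosen with earlier results of these data known. All 10 genes are named, with the 3 highest per kb of each related list, any of its genes that passed, and the 2 nearest profiles of each of the 10 genes.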

Additional observations from a re-analysis of the deposited data

Results flagged for a closer look

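The log2 ratio of Map2 to Mapt in replicate 3, -0.02, stood far from the other 3 libraries, at 0.73 to 0.86. The gap to the nearest library was 0.851 of the whole range, over the 95% critical value of the Dixon test for 4 values. It was 1 of 18 values examined this way, and such a gap arises by chance in about 5% of sets. Map2 was at 733.9 CPM and Mapt at 340.0 CPM in that library, which also had the largest Rn45s share, 24.2%. The cause was not tested.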

How the results depend on the processing

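Per kb ratios depended on the length used. With the longest transcript as length, the log2 ratios were -2.36 for Map1a to Map1b, 1.46 for Map2 to Mapt, -1.62 for Map6 to Mapt and 0.10 for Stmn1 to Stmn2, which turned sign. With the principal coding transcript, added after the data were seen, they were -2.36 for Map1a to Map1b, -0.48 for Map2 to Mapt (turned), 0.012 for Map4 to Mapt, -3.05 for Map6 to Mapt, -0.62 for Stmn1 to Stmn2, -0.26 for Stmn3 to Stmn2 (turned) and -1.97 for Stmn4 to Stmn2. With no length they were -2.36, 1.72, 1.87, -1.74, -1.58, -1.13 (turned) and -2.64, in the order Map1a to Map1b, Map2 to Mapt, Map4 to Mapt, Map6 to Mapt, Stmn1 to Stmn2, Stmn3 to Stmn2 and Stmn4 to Stmn2. Leaving out 1 replicate gave values of -0.14 to 0.063 for Stmn1 to Stmn2. Pseudocounts of 0 and 1 moved no ratio by more than its SD. The number of genes that differed between the pairs, 176, became 77 with library totals alone, 875 with no filter, 379 with at least 10 CPM in 2 libraries and 1268 by DESeq2, and ranged over 389 to 699 when a replicate was left out. The cause was not tested. Leaving out 1 replicate moved the median of all genes to between -0.17 and 0.19 on the log2 scale. Across those 4 fits the log2 changes, none past the threshold, were -0.24 (without replicate 4) to 0.83 for Map1a, -0.42 (without replicate 4) to 0.38 for Map1b, with -0.14 without replicate 1, -1.02 to 0.059 for Stmn1, with 0.056 without replicate 1, and -0.10 (without replicate 3) to 0.53 for Stmn4. Stmn3 passed with no filter (edgeR adjusted p = 0.0296), at 10 CPM or more (edgeR adjusted p = 0.0444) and by DESeq2 (adjusted p = 0.0111). In each of these settings more genes passed than the 176 of the main fit. No paired analysis was possible because the series has 1 group. With 2 libraries a side, a missed threshold does not show that levels were equal.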
